A study of Mus musculus with 6 samples.

Results

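Genes that encode immune checkpoint ligands, or surface enzymes with the same effect, were followed in KP2 mouse pancreatic cancer cells with and without Irak4. They were matched by gene symbol, and they were Cd274, Cd276, Vtcn1, Pvr, Nectin2, Cd47, Lgals9, Tnfrsf14, Nt5e and Entpd1, that is 10 of 41388 genes listed. Of the 10, 8 passed the filter on low counts and were tested; Tnfrsf14 and Entpd1 did not. KP2 is a line from a C57BL/6J KPC mouse, a genetically engineered model of pancreatic cancer, used at fewer than 10 passages and grown in DMEM with fetal bovine serum. The groups were wild type, an Irak4 knockout (KO) made with plentiCRISPR lentivirus carrying guide RNAs to Irak4, and the same KO with rescue, with 2 RNA-seq libraries in each of the 3 groups. The labels do not describe the rescue construct, any vector in the wild-type cells, or whether the KO is a clone or a pool. Nor do they say whether the libraries of a group are separate cultures, and the p-values therefore reflect just the variation among these libraries, possibly technical.

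Checkpoint ligands are proteins on a cell's surface that bind inhibitory receptors on T cells, natural killer cells or macrophages and so dampen an immune response; tumour cells often carry them. PD-L1 (Cd274) binds PD-1, CD155 (Pvr) and CD112 (Nectin2) bind TIGIT, CD47 binds SIRPα on macrophages and restrains phagocytosis, and galectin-9 (Lgals9) binds TIM-3. CD39 (Entpd1) and CD73 (Nt5e) act in sequence on extracellular nucleotides to make adenosine, which restrains T cells. IRAK4 is the kinase that links Toll-like and interleukin-1 receptors to NF-κB, and the design asks what its loss alters and what the rescue restores.

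Totals ranged from 7605328 to 11505983 counts per library. Irak4 stood at 37.9 and 37.6 normalised CPM (counts relative to the TMM-scaled library size) in wild-type cells, 20.4 and 21.8 in KO cells, and 492 and 211 in rescue cells. The KO libraries lay below both wild-type libraries, but the difference did not pass the test (log2 fold change -0.84, SE 0.33, edgeR adjusted p = 0.0573). Over the 15 alternatives run this log2 fold change ran from -0.89 to -0.72, and it was called in 6 of them. Both rescue libraries lay far above wild type. Without a stated strand setting, reads of Irak4 and of Twf1 on the opposite strand cannot be told apart. Spread within a group was widest in the rescue, with a biological coefficient of variation of 10.5% against 5.07% in wild type and 6.08% in the KO. Of 15 immune cell markers, 8 were at 0 in all libraries, among them Cd3e and Adgre1, and the summed level was 4.51 to 4.79 CPM in wild type, 4.70 to 4.85 in the KO and 4.79 to 5.45 in the rescue. The 9 ductal and epithelial markers summed to 6745 to 7056 CPM in wild-type cells, 3911 to 4014 in KO cells and 4783 to 5643 in rescue cells, with Krt18 and Krt19 present and Epcam, a defining epithelial marker, at 1 count over the whole series. Of the 8 of these markers tested, 7 were called lower in the KO, beside 23.5% of all tested genes. Krt7, among the 7, reached the filter level of 1.16 CPM in both libraries of wild type alone. Its fall was thus built into its entry to the test and lends nothing to this count. Fibroblast markers summed to 13.4 to 14.1, 16.2 to 24.2 and 28.03 to 29.83 CPM in the same order, with Dcn, Lum and Pdpn of the 9 at 0 in all libraries. The 6 endothelial markers, mostly Cdh5, summed to 4.87 to 5.67, 16.0 to 30.9 and 14.9 to 38.2 CPM. The part of these markers in the changes of the checkpoint ligands was not tested, and in bulk samples fewer cells of a type and less RNA per cell cannot be told apart.

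With Irak4 knocked out, the transcripts of 6 of the 8 tested checkpoint genes fell (Cd274, Vtcn1, Pvr, Nectin2, Cd47 and Nt5e), Lgals9 rose, and Cd276 did not pass the test. In the rescue, Pvr and Nectin2 rose from the KO level, Pvr to a level that overlapped wild type and Nectin2 to one between the KO and wild type. Cd47, Vtcn1 and Nt5e remained below wild type in the rescue, and Lgals9 above it. Genes were called at an edgeR quasi-likelihood adjusted p under 0.05, with adjustment over the 12339 genes tested, of which 23.5% were called lower and 23.2% higher in the KO against wild type. For the rescue against the KO the 8 tested members gave 2 called higher and 0 lower, where 8.35% of all tested genes were called higher and 5.88% lower. At an unadjusted p under 0.05 there were also 0 lower members in this comparison, and DESeq2 called 0. For the rescue against wild type 1 member was called higher and 4 lower, with 10.2% and 12% of all tested genes called in those directions. The median log2 fold change of the 8 tested members was -0.89 in the KO against wild type, 0.22 in the rescue against the KO and -0.45 in the rescue against wild type, beside 0.01, -0.00 and 0.01 over all tested genes. Libraries did not overlap between the groups for 2 members that were higher (Lgals9 and Cd276) and 6 that were lower in the KO than in wild type, beside 39.1% and 37.6% of all tested genes. For the rescue against the KO, 3 were higher without overlap (Pvr, Nectin2 and Nt5e) and 0 lower, beside 29.3% and 30.1%, and for the rescue against wild type 1 was higher and 4 lower, beside 31.2% and 30.4%. The 3 comparisons share libraries, so they are given side by side and not as support for each other. Nt5e entered the tests through its wild-type libraries alone, so its fall lends nothing to the count of 6 or to the medians against wild type.

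**Figure D1:**
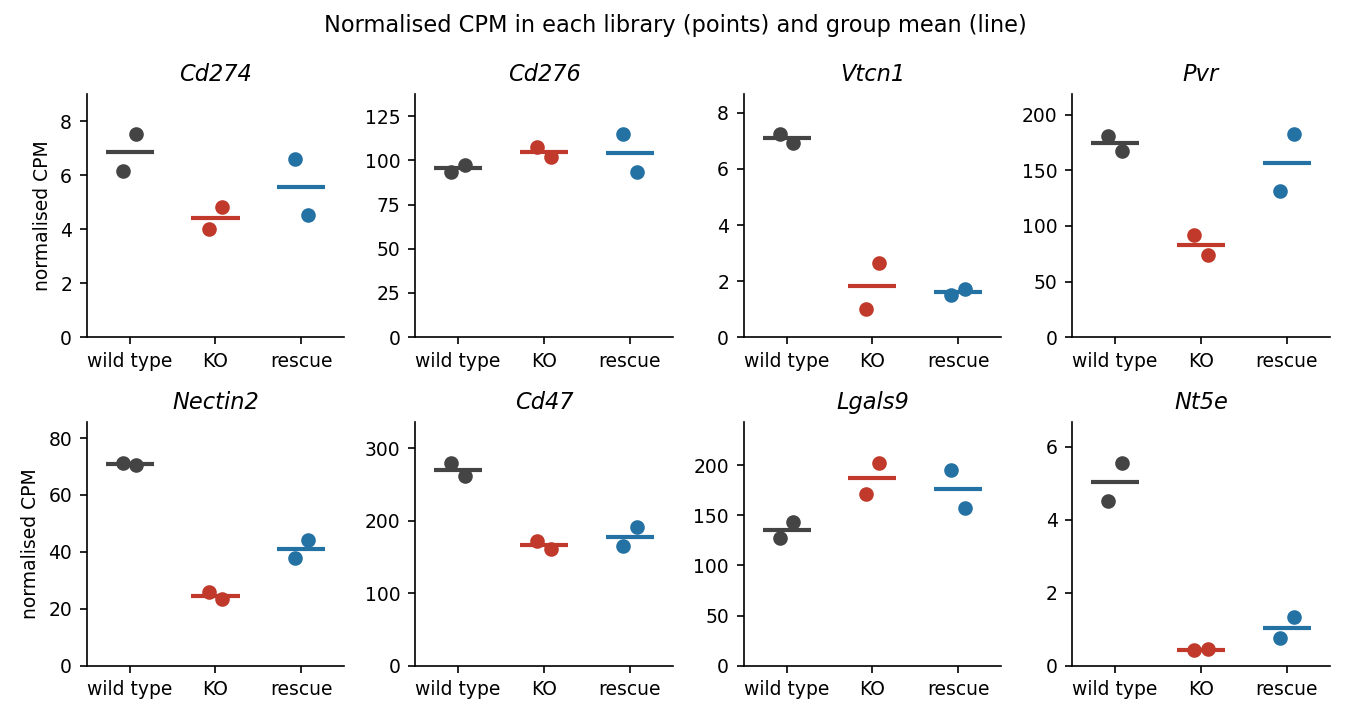
Normalised CPM (linear axis from 0) of the 8 tested genes in each library, with points for the 2 libraries of a group and a line at the group mean. Nectin2 and Pvr are low in the KO and higher in the rescue (KO means 24.6 and 82.7, rescue means 41.0 and 157.0), while Cd47, Vtcn1 and Nt5e are low in both.

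The B7 family was represented by Cd274, Cd276 and Vtcn1. Cd274 (ENSMUSG00000016496, GRCm38 chr19:29367455-29388095, plus strand, 7 exon blocks) encodes PD-L1, the ligand of PD-1 on T cells. It was weakly expressed, at 6.17 and 7.52 normalised CPM in wild-type cells, 4.01 and 4.81 in KO cells, and 6.59 and 4.53 in rescue cells, from 34 to 77 counts per library. Both KO libraries lay below both wild-type libraries, and the rescue libraries were spread from the KO range into the wild-type range. Cd274 fell 1.57-fold in the KO (log2 fold change -0.65, SE 0.24, edgeR adjusted p = 0.0448). This call stands at the threshold and was lost in 8 of the 15 alternatives run. Leaving out the first wild-type library gave an adjusted p of 0.0749, and leaving out the second gave 0.264. For the KO libraries these values were 0.237 and 0.0791. It was 0.17 by DESeq2, 0.0513 with upper-quartile scaling and 0.0935 with total counts alone. In the rescue Cd274 did not pass the test against the KO (0.35, SE 0.26, edgeR adjusted p = 0.393) or against wild type (-0.30, SE 0.25, edgeR adjusted p = 0.417).

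Cd276 (ENSMUSG00000035914, chr9:58524300-58555132, minus strand, 15 exon blocks) encodes B7-H3, a B7 family protein found on many solid tumours. Its libraries gave 93.7 and 97.2 normalised CPM in wild-type cells, 107.4 and 102.0 in KO cells, and 114.9 and 93.6 in rescue cells. The KO libraries lay just above the wild-type libraries, and the rescue libraries spanned both groups. The log2 fold change of the KO against wild type was 0.13 (SE 0.10, edgeR adjusted p = 0.302), that of the rescue against the KO was -0.01 (SE 0.10, edgeR adjusted p = 0.977), and that of the rescue against wild type was 0.13 (SE 0.10, edgeR adjusted p = 0.415). Without the second rescue library the last of these became 0.27 with an edgeR adjusted p of 0.0487. Among the members with enough counts to be tested, Cd276 was the gene with no call in any comparison when all libraries were used.

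Vtcn1 (ENSMUSG00000051076, chr3:100825459-100895679, plus strand, 6 exon blocks) encodes B7-H4, an inhibitory B7 ligand. It gave 7.24 and 6.94 normalised CPM in wild-type cells, 1.00 and 2.64 in KO cells, and 1.52 and 1.73 in rescue cells, from 61 and 71, 12 and 23, and 12 and 13 counts. Wild type stood apart from both other groups, which overlapped each other. Vtcn1 fell 4.10-fold in the KO (log2 fold change -2.04, SE 0.34, edgeR adjusted p = 0.000546) and was 4.33-fold lower in the rescue than in wild type (-2.11, SE 0.37, edgeR adjusted p = 0.00185). The 2 KO libraries differed widely, so that the log2 fold change of the KO became -1.43 when the first KO library was left out and -2.81 when the second was, called in each case. The rescue differed from the KO by -0.08 (SE 0.46, edgeR adjusted p = 0.93). The direction of that last value turned with the library left out, as given among the processing alternatives. The RefSeq sequence (GRCm38.p6) of the 250 bases before the Vtcn1 start, chr3:100825209-100825458 on the plus strand, is shown because this gene had the largest fall of the B7 genes; none of the motifs searched, which are named with the Lgals9 sequence, occurs in it.
Vtcn1: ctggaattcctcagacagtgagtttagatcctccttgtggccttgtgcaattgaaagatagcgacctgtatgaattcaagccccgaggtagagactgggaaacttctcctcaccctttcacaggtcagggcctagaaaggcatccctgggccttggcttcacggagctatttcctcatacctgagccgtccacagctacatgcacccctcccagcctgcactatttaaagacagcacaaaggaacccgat

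Pvr and Nectin2 encode the ligands of TIGIT. Pvr (ENSMUSG00000040511, chr7:19903578-19921160, minus strand, 17 exon blocks) encodes CD155, a high-affinity ligand of inhibitory TIGIT that also binds the activating receptor DNAM-1. Its libraries gave 181.1 and 167.5 normalised CPM in wild-type cells, 91.5 and 73.8 in KO cells, and 131.4 and 182.6 in rescue cells. Both KO libraries lay below all other libraries, and the wild-type values fell inside the range of the rescue. Pvr fell 2.10-fold in the KO (log2 fold change -1.07, SE 0.14, edgeR adjusted p = 0.000135) and was 1.89-fold higher in the rescue than in the KO (0.92, SE 0.15, edgeR adjusted p = 0.00349). The second of these calls was lost without the second KO library, which left a log2 fold change of 0.77 with an edgeR adjusted p of 0.0543. Against wild type the rescue differed by -0.15 (SE 0.14, edgeR adjusted p = 0.488), and without the second rescue library by -0.41 with an edgeR adjusted p of 0.00985. The position of Pvr relative to wild type thus turned on 1 rescue library.

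Nectin2 (ENSMUSG00000062300, chr7:19716644-19749573, minus strand, 15 exon blocks) encodes CD112, a cell adhesion protein that binds TIGIT, PVRIG and DNAM-1. Its libraries gave 71.4 and 70.4 normalised CPM in wild-type cells, 25.7 and 23.4 in KO cells, and 37.8 and 44.2 in rescue cells. The 3 groups did not overlap, and the rescue stood between the KO and wild type. Nectin2 fell 2.88-fold in the KO (log2 fold change -1.52, SE 0.11, edgeR adjusted p = 1.64e-06). In the rescue it rose 1.66-fold from the KO (0.73, SE 0.11, edgeR adjusted p = 0.00317) and remained 1.73-fold below wild type (-0.79, SE 0.10, edgeR adjusted p = 0.000278). Each of these 3 calls held in all alternatives run, the weakest being the rescue against the KO without the second KO library (edgeR adjusted p = 0.0492). An overlapping gene on the opposite strand, Gm20512, held at most 1 count in any library. The RefSeq sequence (GRCm38.p6) of the 250 bases before the Nectin2 start, chr7:19749574-19749823 printed on the minus strand of the gene, is shown because Nectin2 alone of the members was called in all 3 comparisons; it holds none of the motifs searched.
Nectin2: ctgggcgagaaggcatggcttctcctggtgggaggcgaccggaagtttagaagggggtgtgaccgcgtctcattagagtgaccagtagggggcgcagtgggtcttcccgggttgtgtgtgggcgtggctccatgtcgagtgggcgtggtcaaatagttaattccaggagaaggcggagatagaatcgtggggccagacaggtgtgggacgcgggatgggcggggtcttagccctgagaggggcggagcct

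**Figure D2:**
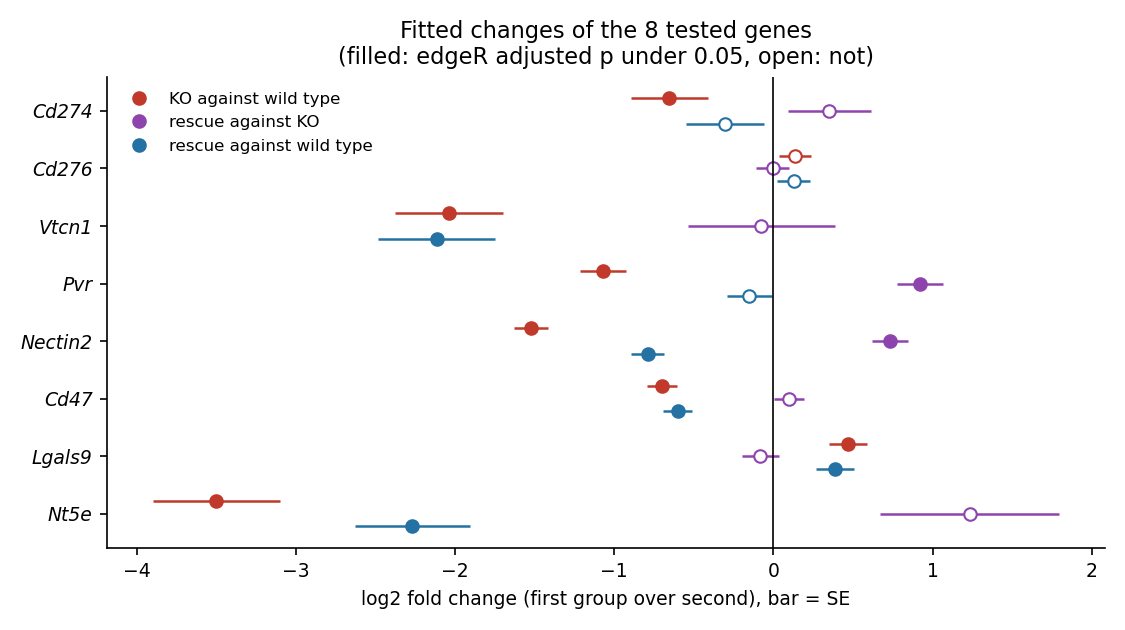
Fitted log2 fold change (horizontal axis, first group over second) of the 8 tested genes in the 3 comparisons, with bars of 1 SE on either side, filled where the edgeR adjusted p is under 0.05 and open where not. Nt5e (-3.50) and Vtcn1 (-2.04) lie farthest to the left for the KO against wild type, and the filled points for the rescue against the KO are those of Pvr (0.92) and Nectin2 (0.73).

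Nectin2 and Pvr lie on the same strand of chromosome 7, with 154004 bases and 9 listed genes between them, a stretch looked at after the values of these genes were seen. Of the 5 tested genes in between, 4 were called lower in the KO, beside 23.5% of all tested genes. Bcam, which encodes a laminin receptor, fell from 7.66 ± 0.92 to 0.38 ± 0.05 normalised CPM (SD, n = 2; log2 fold change -4.27, SE 0.49, edgeR adjusted p = 5.18e-05), and was 0.99 ± 1.04 in the rescue. Bcam reached the filter level of 1.16 CPM in both libraries of wild type alone, so it entered the test through the group where it is high, and its fall lends nothing to the count of 4. Bcl3, which encodes a partner of NF-κB, fell from 60.9 ± 2.38 to 40.7 ± 2.78 and was 32.1 ± 0.45 in the rescue (KO against wild type -0.58, SE 0.09, edgeR adjusted p = 0.000447). The listed spans of Ceacam16 and Gm19345 overlap on opposite strands. Shared exons were not checked for this pair and no strand setting is given, so their reads may not be separable. Both are among the 4 called lower, and their calls may not be separate.

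Cd47 (ENSMUSG00000055447, chr16:49855618-49915010, plus strand, 18 exon blocks) encodes the ligand of SIRPα that restrains phagocytosis by macrophages. It gave 280.2 and 261.1 normalised CPM in wild-type cells, 172.3 and 160.3 in KO cells, and 165.7 and 190.7 in rescue cells. Both wild-type libraries lay above all others, with 1 rescue library between the KO libraries and the other above them. Cd47 fell 1.63-fold in the KO (log2 fold change -0.70, SE 0.09, edgeR adjusted p = 0.000118) and was 1.52-fold lower in the rescue than in wild type (-0.60, SE 0.09, edgeR adjusted p = 0.00086). The rescue differed from the KO by 0.10 (SE 0.09, edgeR adjusted p = 0.513). Both calls against wild type held in all alternatives run. The RefSeq sequence (GRCm38.p6) before a Cd47 start, chr16:49855404-49855617 on the plus strand, is shown because Cd47 alone of the 9 matched members held the hypoxia response motif ACGTG, here on the other strand. It stops at the edge of the gene as listed, short of the RefSeq start at 49855654. Capitals mark the match, 76 to 72 bases before the RefSeq start. RefSeq lists a second Cd47 start whose overlapping window holds the same match, 83 to 79 bases before it.
Cd47: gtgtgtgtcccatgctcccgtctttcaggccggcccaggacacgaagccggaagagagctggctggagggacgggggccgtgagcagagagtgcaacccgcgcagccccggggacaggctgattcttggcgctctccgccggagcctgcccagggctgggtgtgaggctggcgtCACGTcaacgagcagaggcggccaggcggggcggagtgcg

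Lgals9 (ENSMUSG00000001123, chr11:78962974-78984946, minus strand, 36 exon blocks) encodes galectin-9, a secreted and surface-bound lectin that binds TIM-3, and it moved opposite to the other called members. It gave 126.8 and 142.9 normalised CPM in wild-type cells, 171.4 and 202.4 in KO cells, and 194.9 and 157.3 in rescue cells. All KO and rescue libraries lay above both wild-type libraries, and the KO and the rescue overlapped. Lgals9 rose 1.38-fold in the KO (log2 fold change 0.47, SE 0.12, edgeR adjusted p = 0.00671), a call that was lost without the first wild-type library (adjusted p = 0.0881) or the second KO library (adjusted p = 0.0811). In the rescue it was 1.30-fold above wild type (0.38, SE 0.12, edgeR adjusted p = 0.038). That call was lost when the first wild-type (0.30, adjusted p = 0.275), the second wild-type (0.48, adjusted p = 0.0853) or the first rescue library (0.21, adjusted p = 0.201) was left out, all by edgeR. The rescue differed from the KO by -0.08 (SE 0.12, edgeR adjusted p = 0.673).

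The RefSeq sequence (GRCm38.p6) before the Lgals9 start, chr11:78984947-78985174 printed on the minus strand of the gene, is shown because Lgals9 was the member that rose. It stops at the edge of the gene as listed, short of the RefSeq start at 78984924. Capitals mark a match to the interferon-stimulated response element (ISRE) on the other strand, 55 to 46 bases before the RefSeq start.
Lgals9: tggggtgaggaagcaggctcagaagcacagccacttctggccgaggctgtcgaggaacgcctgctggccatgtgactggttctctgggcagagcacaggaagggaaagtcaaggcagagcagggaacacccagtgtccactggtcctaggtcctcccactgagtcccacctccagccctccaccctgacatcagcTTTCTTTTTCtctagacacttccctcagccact
RefSeq promoter windows matched 9 of the 10 members, and Pvr had none. The bases searched for Tnfrsf14, Nt5e and a second Entpd1 start lie inside the genes as listed. The bases after the Cd276 start were not found in a transcript of that gene, so the strand of its window was not established. The 250 bases before each start were searched for the ISRE (GAAA, any 2 bases, GAAA), the interferon gamma activated site (TTCNNNGAA), AP-1 (TGANTCA), the hypoxia response motif (ACGTG) and the kappaB motif on both strands, and for the TATA box (TATAAA) on the gene's strand. Over 32851 windows of that length, 2.98% held the ISRE, 7.02% the interferon gamma activated site, 6.75% AP-1, 16.6% the hypoxia response motif, 7.25% kappaB and 7.59% the TATA box. Among the members, the ISRE occurred before Lgals9 and before a RefSeq start of Tnfrsf14 (64 to 55 bases before it), and the hypoxia response motif before Cd47. The Tnfrsf14 start, at 154928077, and its match lie inside the gene as listed, which reaches 154928563. A match is a description of letters and not of binding.

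Tnfrsf14 (ENSMUSG00000042333, chr4:154922210-154928563, minus strand) encodes HVEM, the ligand of BTLA and CD160. It had 2 and 1 counts in wild-type cells, 2 and 4 in KO cells, and 0 and 3 in rescue cells. The summed 3, 6 and 3 counts gave 0.161 CPM (95% exact Poisson interval 0.0332 to 0.470), 0.290 (0.106 to 0.631) and 0.195 (0.0402 to 0.570), which overlap. These intervals cover counting error only. No difference between groups was detectable at this depth.

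The adenosine-producing enzymes were weakly expressed. Nt5e (ENSMUSG00000032420, chr9:88327197-88372092, plus strand, 16 exon blocks) encodes CD73, which turns AMP into adenosine. It had 38 and 57 counts in wild-type cells, 5 and 4 in KO cells, and 6 and 10 in rescue cells, or 4.51 and 5.57, 0.418 and 0.458, and 0.761 and 1.33 normalised CPM. The 3 groups did not overlap, with the rescue close to the KO. Nt5e fell 11.3-fold in the KO (log2 fold change -3.50, SE 0.40, edgeR adjusted p = 4.65e-05), the largest fold change among the members tested, and was 4.82-fold lower in the rescue than in wild type (-2.27, SE 0.36, edgeR adjusted p = 0.00106). The rescue against the KO gave 1.23 (SE 0.56, edgeR adjusted p = 0.166) and did not pass. Nt5e reached the filter level of 1.16 CPM in both libraries of wild type alone, so a difference was built into its entry to the test.

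Entpd1 (ENSMUSG00000048120, chr19:40612366-40741602, plus strand) encodes CD39, which turns ATP and ADP into AMP, the substrate of CD73. A single count was found, in a KO library, and the other 5 libraries had 0. Taken as 3 counts of the group's total, the limit that a count of 0 allows is 0.161 CPM in wild type and 0.195 CPM in the rescue; the 95% exact Poisson interval used for Tnfrsf14 reaches 0.198 and 0.240 CPM.

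Levels of different genes were compared per kilobase of listed length, as normalised RPKM. In wild type Lgals9 was highest at 63.1 ± 5.34 (SD, n = 2), then Cd47 at 51.3 ± 2.57, Pvr at 32.2 ± 1.78, Cd276 at 29.0 ± 0.76 and Nectin2 at 20.6 ± 0.19. Below them came Vtcn1 at 5.14 ± 0.16, Cd274 at 1.89 ± 0.26, Nt5e at 0.60 ± 0.09, Tnfrsf14 at 0.14 ± 0.09 and Entpd1 at 0. No neighbours in this order overlapped between their libraries. In the KO Lgals9 remained highest at 87.5 ± 10.2, Cd276 at 31.8 ± 1.16 and Cd47 at 31.5 ± 1.61 overlapped, and Pvr followed at 15.3 ± 2.32 and Nectin2 at 7.14 ± 0.49. Vtcn1 at 1.32 ± 0.84 and Cd274 at 1.22 ± 0.16 overlapped as well, and Nt5e, at 0.0521 ± 0.0034, came below Tnfrsf14 at 0.27 ± 0.18. In the rescue Lgals9 led at 82.4 ± 12.5, and Cd47, Cd276 and Pvr, at 33.8 ± 3.35, 31.6 ± 4.56 and 29.0 ± 6.70, overlapped as neighbours, above Nectin2 at 11.9 ± 1.32. Cd274 at 1.54 ± 0.40 and Vtcn1 at 1.18 ± 0.11 overlapped, as did Tnfrsf14 and Nt5e. Summed over the 10 genes, normalised RPKM was 202.8 and 205.2 in wild-type cells, 171.9 and 180.2 in KO cells, and 195.8 and 187.8 in rescue cells, so that the sum was lowest in the KO although its most abundant member rose.

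**Figure D3:**
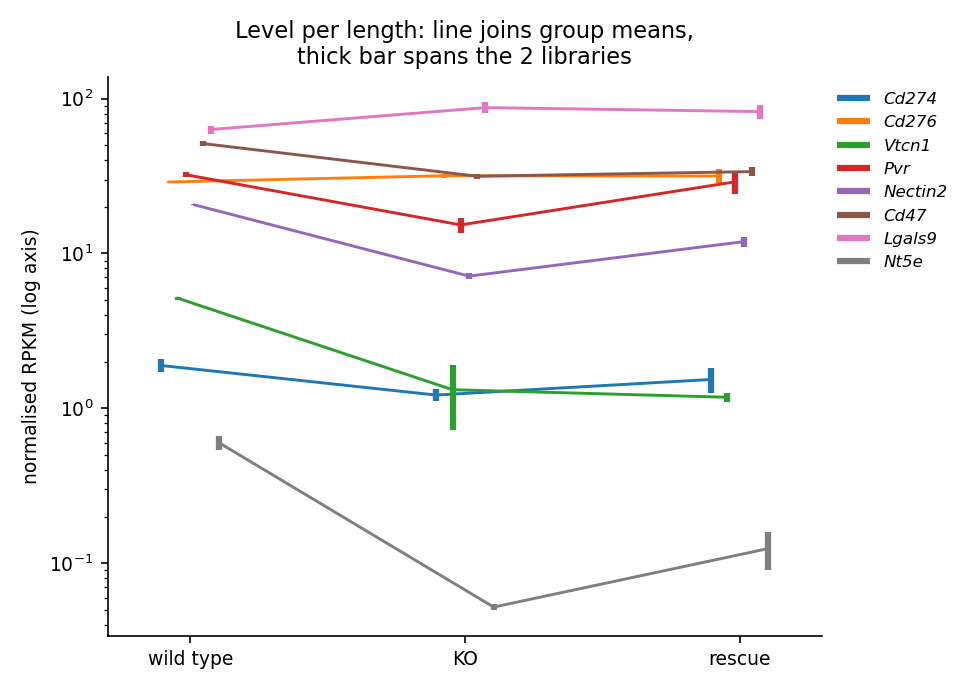
Normalised RPKM (log axis) of the 8 tested genes by group; lines join the group means and thick bars span the 2 libraries of a group. Lgals9 is at the top in each group (63.1, 87.5 and 82.4), and Nt5e at the bottom (0.60, 0.0521 and 0.124).

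**Figure D4:**
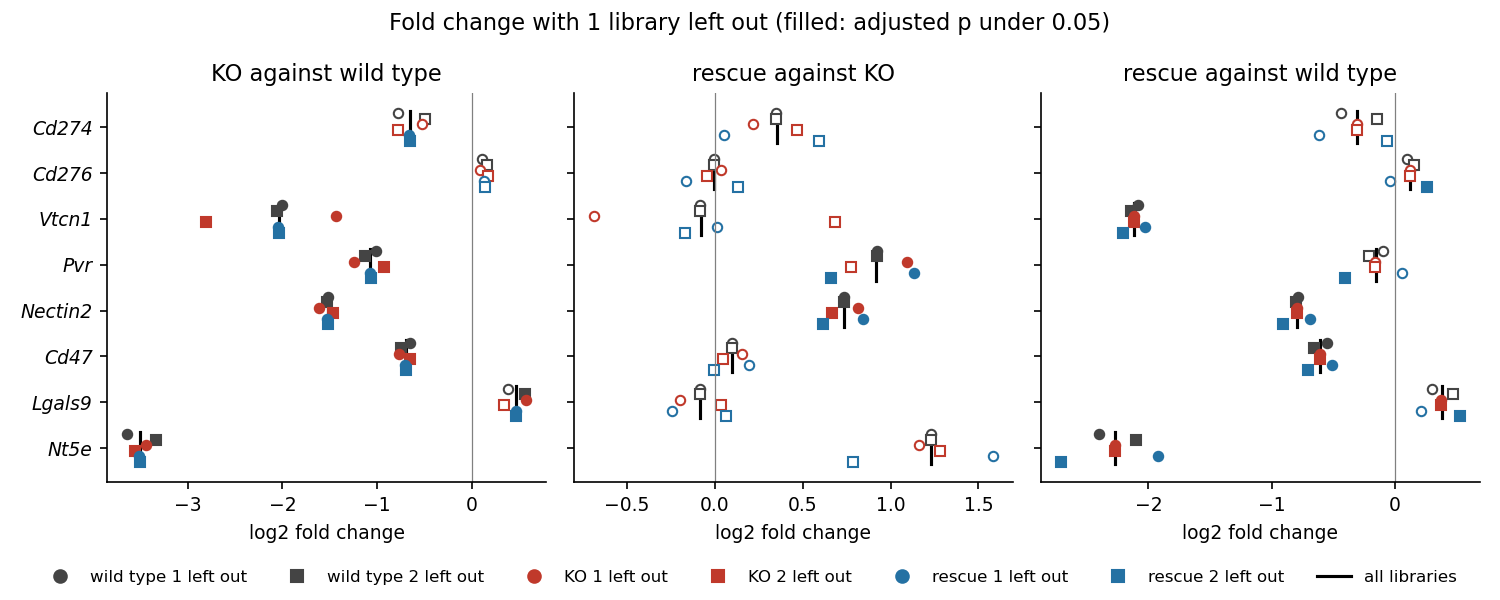
Log2 fold change of each tested gene with 1 library left out at a time (markers, filled where the edgeR adjusted p is under 0.05) and with all libraries (black ticks). The KO falls of Nectin2, Cd47, Vtcn1, Pvr and Nt5e stay filled, those of Cd274 turn open in each panel position where a wild-type or KO library is left out, and Vtcn1 ranges from -2.81 to -1.43.

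The other genes of each ligand's pathway were counted from lists chosen with earlier results known. The median log2 fold change of the tested genes in the KO against wild type was -0.21 for regulators of PD-L1, -0.25 for the nectin network and -1.03 for the CD47 network. It was 0.02 for the galectin list and 0.14 for adenosine and ATP handling, beside 0.01 over all tested genes. Over all tested genes 23.2% were called higher and 23.5% lower in this comparison, and the counts of each list are to be read beside these shares. Tigit of the nectin network and Sirpa of the CD47 network reached the filter level of 1.16 CPM in both libraries of wild type alone, so that a fall was built into their entry to the test; both are among the lower calls of their lists. Of 13 other B7, butyrophilin and TNF-family ligands only Tnfsf9 and Cd40 were expressed enough to be tested, and 0 were called in any comparison, with 0 at an unadjusted p under 0.05 and 0 by DESeq2. Tnfsf9, which encodes 4-1BB ligand, stood at 13.6 ± 1.62 normalised CPM (SD, n = 2) in wild-type cells, 10.7 ± 1.73 in KO cells and 13.6 ± 1.18 in rescue cells. Cd80, Cd86 and Cd70 were at 0 in all libraries.

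Of 17 regulators of PD-L1 expression and stability, all tested, 7 fell in the KO. Jak2, a kinase of interferon gamma receptor signalling whose gene lies near Cd274 on chromosome 19, fell from 91.8 ± 6.79 to 42.7 ± 1.33 normalised CPM and was 41.8 ± 5.67 in the rescue (KO against wild type -1.11, SE 0.11, edgeR adjusted p = 1.4e-05). Ifngr1, a chain of that receptor, fell from 296.2 ± 14.7 to 191.8 ± 4.43 and was 223.8 ± 9.68 in the rescue (-0.63, SE 0.08, edgeR adjusted p = 0.000114). In the rescue against the KO, Myc was called higher and Ifngr2 lower, and 0 were called in either direction without the second KO library. Without the first rescue library 3 were called higher.

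Of 6 tested genes of the nectin network, 3 fell and 1 rose in the KO. The rise was not called without the first wild-type library or either KO library, and 2 rises were called without either rescue library. The adhesion gene Cadm4 fell (6.58 ± 1.44 to 1.98 ± 0.44 normalised CPM, -1.74, SE 0.29, edgeR adjusted p = 0.000601). In the rescue against the KO 0 were called in either direction, by edgeR and by DESeq2, with 2 higher and 1 lower at an unadjusted p under 0.05. Without the first rescue library 1 was called higher and 2 lower.

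In the CD47 network, 5 of 8 tested genes fell in the KO and 1 rose, with 2 rises when either rescue library was left out. Itgb3, the integrin beta chain that pairs with Itgav, fell from 30.0 ± 0.58 to 1.12 ± 0.04 normalised CPM and was 3.26 ± 0.85 in the rescue (KO against wild type -4.74, SE 0.22, edgeR adjusted p = 1.07e-07). Itgav fell from 576.4 ± 57.6 to 267.3 ± 7.87 and was 407.5 ± 41.5 in the rescue (-1.11, SE 0.10, edgeR adjusted p = 1.03e-05). Calr, which encodes calreticulin, a phagocytic signal that CD47 counters, rose from 811.0 ± 53.1 to 1555 ± 40.1 (0.94, SE 0.10, edgeR adjusted p = 4.11e-05). In the rescue against the KO 4 were called higher, a count that became 2 when the first KO or the second rescue library was left out and 1 when the second KO library was. Thrombospondin-1 (Thbs1), a secreted ligand of CD47, was among them, at 80.4 ± 18.0 in the KO and 283.0 ± 94.6 in the rescue (1.81, SE 0.20, edgeR adjusted p = 0.00104). Lower calls there were 0, with 3 at an unadjusted p under 0.05, 0 by DESeq2 and 2 without the first rescue library.

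Of 7 tested genes of the galectin list, 2 rose (Lgals4 and Lgals3bp) and 2 fell (Lgals3 and Havcr2) in the KO. These counts are close to the shares over all tested genes (23.2% and 23.5%). Lgals3bp and Havcr2 are not galectins themselves. The lower count did not hold when any single wild-type or KO library was left out. Lgals3bp, the galectin-3 binding protein, rose from 290.1 ± 35.9 to 622.8 ± 31.5 normalised CPM (1.10, SE 0.12, edgeR adjusted p = 2.77e-05), and was 550.5 ± 79.2 in the rescue. Havcr2, which encodes TIM-3, the receptor of galectin-9, fell from 25.5 ± 2.90 to 10.7 ± 0.77 and was 11.4 ± 2.88 in the rescue (KO against wild type -1.24, SE 0.17, edgeR adjusted p = 0.000163). Of 5 tested genes of the HVEM network 0 were called in the KO, by edgeR and by DESeq2, with 1 higher at an unadjusted p under 0.05 and 1 called higher when either rescue library was left out.

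Of 12 tested genes of adenosine and ATP handling, 3 rose and 3 fell in the KO, again close to 23.2% and 23.5% over all tested genes. The higher count was 1 without the second wild-type library or without either KO library, and 5 without either rescue library. Enpp1, an ectoenzyme that cleaves ATP, fell from 120.8 ± 2.05 to 75.2 ± 4.12 normalised CPM and was 80.3 ± 5.44 in the rescue (-0.68, SE 0.09, edgeR adjusted p = 0.000104). P2ry2, a receptor for extracellular ATP and UTP, fell from 36.9 ± 0.84 to 7.92 ± 1.28 and was 5.90 ± 0.81 in the rescue (-2.24, SE 0.15, edgeR adjusted p = 1.35e-06).

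In the rescue against the KO, 1 galectin gene was called lower. It was Lgals4, at 24.8 ± 6.10 normalised CPM in KO cells and 5.52 ± 4.03 in rescue cells (-2.14, SE 0.33, edgeR adjusted p = 0.00328). Its log2 fold change was -3.19 without the first rescue library and -1.55 without the second. More genes of the galectin list were called lower when the first rescue library or the first KO library was left out. The adenosine transporter gene Slc29a1 was called lower (-0.41, SE 0.10, edgeR adjusted p = 0.0224), a call lost without either KO library or the second rescue library. Of the HVEM network 0 were called, with 3 lower at an unadjusted p under 0.05, 0 by DESeq2 and 1 lower without the first rescue library. The shares over the whole table were 8.35% up and 5.88% down here. Against wild type, where they were 10.2% and 12%, the rescue had 7 regulators of PD-L1 called lower, and that count became 4 on leaving out wild-type library 1 and 3 on leaving out wild-type library 2. For the CD47 network 5 were lower and 2 higher, with 1 higher and 1 or 2 lower on leaving out either of these, and 3 lower on leaving out either KO library. For the nectin network 2 were lower, a count that was 0 or 1 whichever library was left out.

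**Figure D5:**
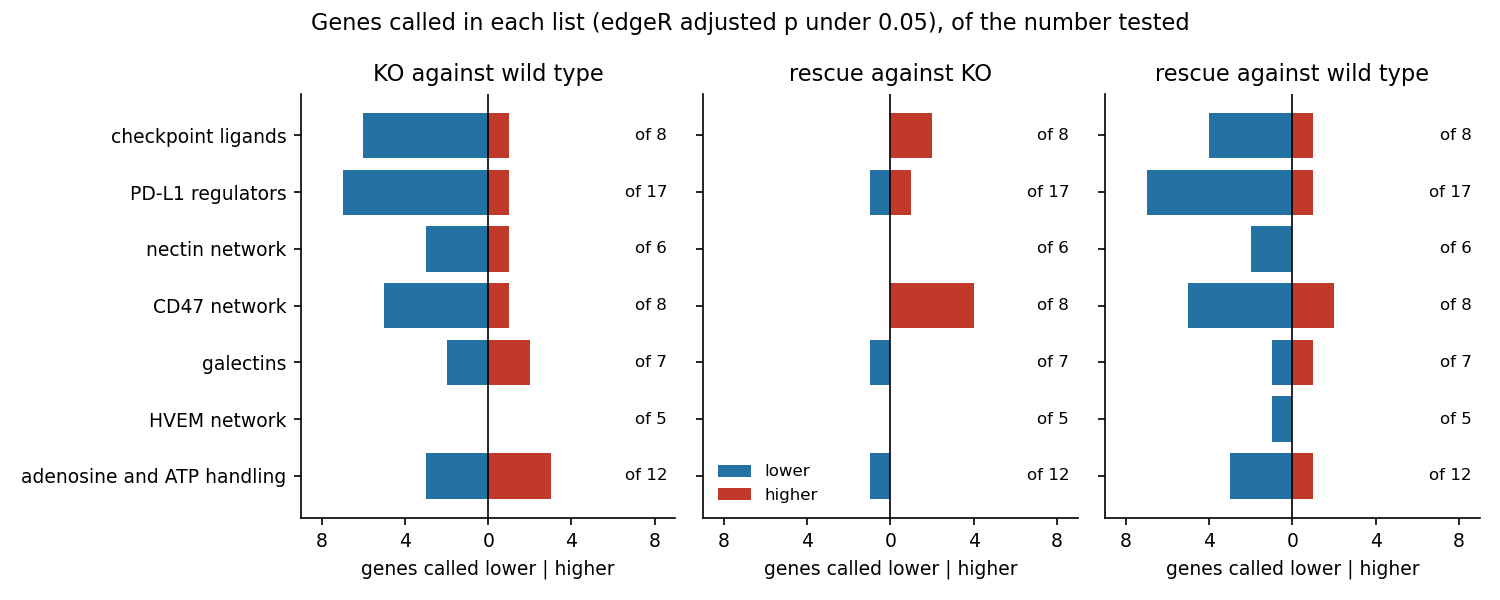
Number of genes called lower (bars to the left) and higher (bars to the right) in each list and comparison at an edgeR adjusted p under 0.05, with the number tested at the right of each row. The checkpoint ligands show 6 lower and 1 higher of 8 tested for the KO against wild type, and 2 higher for the rescue against the KO.

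The genes whose pattern over the 6 libraries was most like each member were taken by the distance between log2 CPM values centred on the gene's mean, among 10252 tested genes with a mean of at least 5 CPM. All points share the same libraries and depths. Nearest to Pvr were Slc2a1, which encodes the glucose transporter GLUT1 (distance 0.11, Pearson r 0.998), Cep170 (0.13) and Cited2 (0.17). Nearest to Cd47 was Enpp1, at a distance of 0.07 (Pearson r 0.997), followed by Acvr1b (0.10) and Dip2c (0.10). Nectin2 was nearest to Nrarp, Rnf19b and Slit2, each at 0.18, and Lgals9 to Lzts3 (0.07), Shkbp1 (0.10) and Ank (0.12). Cd276 was nearest to Chchd1, Hid1 and Klhl12, at 0.05 to 0.08. Cd274 had no gene as near, the closest being Pigx at 0.27, Kctd21 at 0.28 and Fbxw7 at 0.30. It also had the fewest counts of these members, 34 to 77 per library. Part of its distance may be counting error, which was not tested.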

How the data were processed

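The authors deposited, per the file headers, per gene a read count with its CPM and RPKM, over 41388 genes in each of 6 libraries; the submitters' processing notes name bcl2fastq, STAR 2.0.4b, Subread, featureCounts 1.45 and GRCm38, with no role given. Neither a strand setting nor an annotation release is given in the sources used here. The deposited CPM and RPKM were used only to check the counts. The 10 members and all lists were chosen with earlier results of these data known. Symbols came from GENCODE for 40254 identifiers. Genes were kept by filterByExpr (minimum count 10, minimum total 15), which left 12339. Counts were scaled by TMM and tested with edgeR 4.0.16 (R 4.3.3) quasi-likelihood over all 6 libraries with 1 mean per group (3 residual degrees of freedom) and Benjamini-Hochberg adjustment over the genes tested. Normalised CPM is the count over the TMM-scaled library size, and normalised RPKM is that per kilobase of listed length. The SE is the fold change over the square root of F. Pattern likeness used log2 CPM with a prior count of 2. The rule for names took all 10 members, Irak4, up to 3 called genes of each list and comparison, and the 3 nearest patterns; the genes near Nectin2, Pvr and Cd274, Tnfsf9, Cd40, and genes at 0 were named after their values were seen. Some results for genes of the lists are not reported here. The test was checked on simulated data. Alternatives were other scalings, filters, DESeq2 1.42.0, the compared groups only, a replicate block and leaving out each library. No pair of libraries held identical counts.

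Depth of 7605328 to 11505983 counts per library gives a floor of 3 counts over a group for genes at 0, and floors and intervals cover counting error only.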

Additional observations from a re-analysis of the deposited data

How the results depend on the processing

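Of 356 fold changes of the 8 tested members under 15 alternatives, 329 kept their direction and side of the threshold, 15 lost a call, 2 gained one and 10 turned direction. The falls of Nectin2, Cd47, Vtcn1 and Pvr in the KO were called in every alternative. That of Nt5e was called wherever it was tested, but Nt5e entered the test through wild type alone, so this lends no support. The stricter filter (5 CPM in 2 libraries) dropped Nt5e. Leaving out 1 library gave 0 to 1 member called higher in the KO against wild type (0 without the first wild-type or second KO library), 1 to 2 in the rescue against the KO (1 without the second KO library) and 0 to 2 in the rescue against wild type. With the replicate block this last count was 0; the block gave edgeR adjusted p = 0.0599 for Lgals9 there and 0.0694 for Cd274 in the KO. The fold changes that turned were not called where they turned. Over the left-out libraries, those of the rescue against the KO ran from -0.0072 (second rescue library out) to 0.20 for Cd47, from -0.25 to 0.0627 (second rescue library out; 0.0347 with the second KO library out) for Lgals9, from -0.16 to 0.13 (second rescue library out; 0.0366 with the first KO library out) for Cd276, and from -0.69 to 0.68 (second KO library out; 0.0139 with the first rescue library out) for Vtcn1, and Cd276 was 0.0009 under the stricter filter. Those of the rescue against wild type ran from -0.41 to 0.0617 (first rescue library out) for Pvr and from -0.0352 (first rescue library out) to 0.27 for Cd276. The cause was not tested.

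Total counts without scaling factors shifted the median of all genes by 0.13 (log2) for the KO against wild type; it gave 4013 higher and 2237 lower calls where TMM gave 2867 and 2905; in the rescue against the KO these were 837 and 1185 against 1030 and 726. The replicate block called 765 higher and 429 lower in the rescue against the KO. Same-numbered libraries deviated with correlations of -0.19 (KO and rescue), 0.04 (KO and wild type) and -0.15 (rescue and wild type) over 12339 genes. A block with the rescue numbers crossed, chosen after seeing the data, called 1425 higher and 1135 lower there. With 2 libraries in a group, a group left with 1 was assumed to vary like the others. Fewer than 80 counts per library limit Cd274, Vtcn1 and Nt5e.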

Other observations

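Several genes for the immune receptors of these ligands gave counts in the tumour cells. Of 14 such receptor genes 4 were tested, and 3 fell in the KO against wild type, namely Tigit, Sirpa and Havcr2. Tigit and Sirpa reached the filter level of 1.16 CPM in both libraries of wild type alone, so their falls were built into their entry to the test and the count of 3 supports nothing. Tigit had 19 and 21 counts in wild-type cells, 4 and 4 in KO cells, and 6 and 7 in rescue cells. Sirpa went from 3.39 ± 0.60 normalised CPM (SD, n = 2) in wild type to 1.07 ± 0.10 in the KO and 1.57 ± 0.61 in the rescue, with a log2 fold change of -1.67 in the KO (SE 0.37, edgeR adjusted p = 0.00315). Under the filter of 5 CPM 1 of the 3 was called. Pdcd1, Cd226, Cd96, Btla and Icos were at 0 in all libraries, and so were Cd3e and Nkg7.

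Around Cd274 on chromosome 19, a region looked at after values were seen, 10 tested genes were taken, 5 on either side. Of these, 5 were called lower and 1 higher in the KO, beside 23.5% and 23.2% of all tested genes. Il33, which encodes a cytokine of the interleukin-1 family, fell from 333.1 ± 17.8 to 18.2 ± 1.02 normalised CPM (log2 fold change -4.20, SE 0.19, edgeR adjusted p = 8.93e-08) and was 23.9 ± 10.1 in the rescue. Plgrkt, which starts next to Cd274 on the opposite strand, was 20.4 ± 2.35 in wild type and 20.3 ± 0.32 in the KO (edgeR adjusted p = 0.933).

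The rescue library with more Irak4 (492 against 211 normalised CPM) had less Pvr, Nectin2, Cd47, Vtcn1 and Nt5e than the other. It had more Cd274, Lgals9 and Cd276. For Vtcn1 this rests on 12 against 13 counts and for Nt5e on 6 against 10. Whether these levels go with Irak4 was not tested, and 2 libraries cannot show it.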
